A study of Equus caballus with 4 samples.

Results

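The genes of prostaglandin synthesis and prostaglandin reception were examined in differentiating equine satellite cells (ESC), the stem cells of skeletal muscle. The 10 genes were chosen by symbol: PLA2G4A, PTGS1, PTGS2, PTGES, PTGES2, PTGES3, PTGIS, PTGER2, PTGER4 and PTGFR. They are 10 of the 15085 gene symbols on the horse array and are read by 29 probes of 60 bases in 33 spots. The rule uses symbols only, but the list was drawn up with earlier results of these data known. The cells came from semitendinosus muscle of young healthy stallions and were used on day 3 of differentiation. The HMB group was incubated with 50 µM HMB (β-hydroxy-β-methylbutyrate, a metabolite of leucine) for 24 h. Per the methods of the study, 3 mM H2O2 was present for the final 1 h of these 24 h. The control group received the same H2O2 without HMB, so cells without peroxide are not part of the comparison. Each of 4 arrays compared Cy5-labeled RNA of HMB cells with Cy3-labeled control RNA.

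Limits of the design apply to every value below. The dyes were not swapped, so the treatment and the dye cannot be told apart. All arrays lay on 1 slide. The labels number the HMB samples as biological replicates 1 to 4 but give the control the same number on every array, and if the control was 1 RNA, its own spread is missing from the errors. Per the methods of the study, cultures were made from several horses and the best culture was carried forward, so the 4 replicates need not be 4 horses and p-values may measure the spread between cultures only. Between 55.2% and 61.8% of the spots in a channel were well above background and 0 spots were saturated. The ratios of any 2 arrays correlated across probes with r between 0.837 and 0.920.

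The muscle label was checked against its markers. Absent by symbol from the array, and so not checked, were PAX7, TNNT1 and MYMK (muscle) and COL1A1 (fibroblast). The same held for PTPRC and CD163 (leukocyte and macrophage). All 8 muscle markers on the array were well above background in both channels, and 6 of them fell with HMB, with a median log2 ratio of −1.02 over the list. Their summed signal ranged from 174558 to 195370 in the control channel and from 67578.5 to 106237 in the HMB channel. Those that did not fall were MYOD1 (log2 ratio 0.32) and MYOG (0.03). By the same test, 10.5% of all tested genes were higher and 17.1% lower with HMB. Of 6 fibroblast markers, 4 rose and 0 fell, with a median log2 ratio of 0.59. Their summed signal ranged from 413316 to 503650 in the control and from 405633 to 633656 with HMB. Most of this sum came from COL1A2 (log2 ratio −0.23) and COL3A1 (0.06), which did not pass the test. Of 7 leukocyte and macrophage markers, 2 were well above background on all arrays, CD14 (log2 ratio 0.20, not past the test) and CD68 (0.88, higher), whereas CSF1R, ITGAM, AIF1, CD3E and CD79A were not. The summed signal of these 7 ranged from 3697 to 4446 in the control and from 4172 to 6216 with HMB. CD14 made up most of it. Of 5 endothelial markers, 0 were well above background on all arrays, with summed signals of 43.7 to 83.3 in the control and 49.9 to 80.9 with HMB. The part of fibroblast-like or macrophage-like cells in the prostaglandin results was not tested, and in bulk RNA fewer cells of a type and less RNA per cell cannot be told apart.

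Prostaglandins are short-lived lipid signals made from arachidonic acid. Cytosolic phospholipase A2 (PLA2G4A) releases arachidonic acid from membranes, the cyclooxygenases (PTGS1, constitutive in most tissues, and PTGS2, inducible by cytokines and stress) turn it into prostaglandin H2, and terminal synthases make the single prostaglandins from it. PTGES, PTGES2 and PTGES3 have been described as synthases of prostaglandin E2, and PTGIS makes prostacyclin. PTGER2 and PTGER4 are E2 receptors that raise cyclic AMP, and PTGFR is the receptor for prostaglandin F2α. In muscle, prostaglandins are known for effects on the proliferation, fusion and growth of myogenic cells.

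The probes that carry the comparison are shown as the array files give them, 5′ to 3′, on the EquCab1 build. The files name no exon for a probe. The probes printed whole hold at least 1 reading frame without a stop codon, and of the probes near the transcript ends only the first 30 bases are given. PTGS2 and PTGS1 encode related enzymes, so their probes are set side by side, and the longest run of bases that a PTGS1 probe shares with a PTGS2 probe was 6. In the probes of PTGES and PTGER2, capitals mark bases within the stretch shared by all 5 overlapping probes of the gene, 52 bases for PTGES and 56 for PTGER2.
PTGS2 A_69_P004631 (chr5:14456973-14457032, minus strand): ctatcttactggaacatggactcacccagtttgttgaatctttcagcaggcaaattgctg
PTGS2 A_69_P000997 (chr5:14454523-14454582, minus strand, first 30 bases): ttagattaagatttgtaggggccagcccag
PTGS1 A_69_P004621 (chr25:12672736-12672795, minus strand): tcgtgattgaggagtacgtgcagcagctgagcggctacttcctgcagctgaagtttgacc
PTGS1 A_69_P001881 (chr25:12667762-12669107, minus strand): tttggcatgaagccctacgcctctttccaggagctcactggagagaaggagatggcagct
PLA2G4A A_69_P000642 (chr5:14742326-14742385, plus strand): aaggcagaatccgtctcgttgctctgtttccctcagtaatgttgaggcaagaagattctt
PTGES A_69_P000405 (chr25:6030423-6030482, plus strand, first 30 bases): tccacgtgTCTCTCCTAGACTCCTGTTCTG
PTGES A_69_P000401 (chr25:6030431-6030490, plus strand, first 30 bases): TCTCTCCTAGACTCCTGTTCTGAGACGTGT
PTGER2 A_69_P101276 (chr1:179584104-179584163, plus strand): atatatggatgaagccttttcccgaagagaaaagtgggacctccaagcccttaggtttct
PTGER2 A_69_P000895 (chr1:179584546-179584605, plus strand, first 30 bases): tttgAGGAACAACCAACAGTGTTTAAGATC
PTGER2 A_69_P000891 (chr1:179584550-179584609, plus strand, first 30 bases): AGGAACAACCAACAGTGTTTAAGATCCATT
The second PTGS1 probe spans 1346 genomic bases although it is 60 bases long, so it is split across at least 1 intron.

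The comparison asked which genes of the pathway differed in RNA level between HMB-treated and control cells after H2O2. Proteins, enzyme activity and prostaglandins were not measured on these arrays. Expression of PLA2G4A, PTGS2, PTGES and PTGER2 was higher with HMB on all 4 arrays. These genes encode a phospholipase that releases arachidonic acid, the inducible cyclooxygenase, 1 E2 synthase and 1 E2 receptor. PTGES2, PTGES3, PTGIS and PTGFR did not pass the test, and PTGS1 and PTGER4 were too dim to be tested. A probe was tested if 1 or both channels were well above background on all 4 arrays. It was called at an adjusted p (limma, Benjamini-Hochberg over all 24670 tested probes) of at most 0.05 and a fold change (FC) of at least 1.3. Each gene is given by its brightest tested probe, and the log2 ratio is that of HMB over control.

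Of the 8 tested genes, 4 were called higher and 0 lower. Over all 8801 tested genes, 10.5% were called higher and 17.1% lower, 27.6% in all. The median log2 ratio was 0.58 over the 8 genes and −0.08 over all tested genes. By probes, 16 of the 22 tested were called, all of them higher, where 28.6% of all tested probes were called in either direction. One of the 16, PTGS2 probe A_69_P004631, was tested through its HMB channel alone. Probes of 1 gene share their target, so these 16 are no separate observations. Ranked by log2 ratio from the highest among the 8801 genes, PTGS2 was at place 44, PTGES at 127, PLA2G4A at 261 and PTGER2 at 352.

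**Figure D1:**
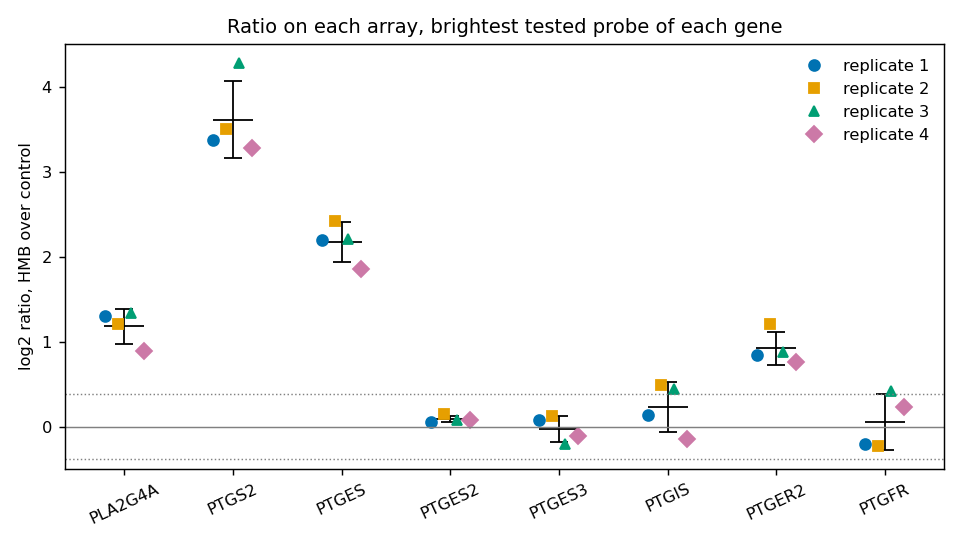
The log2 ratio of HMB over control (vertical axis) is plotted on each of 4 arrays for the brightest tested probe of 8 genes, with the mean (horizontal bar) and SD (error bar); dotted lines mark an FC of 1.3. For PLA2G4A, PTGS2, PTGES and PTGER2 every array lies above the upper dotted line, and for PTGES2, PTGES3, PTGIS and PTGFR the means lie between the dotted lines.

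PLA2G4A, the phospholipase at the start of the pathway, had log2 ratios of 1.302, 1.215, 1.334 and 0.886 in replicates 1 to 4. The control signals were 732, 652, 880 and 784, and the HMB signals 1806, 1514, 2220 and 1449 (processed brightness of the same probe, in arbitrary units). Every HMB signal was above every control signal, and the smallest ratio was that of replicate 4. The mean log2 ratio was 1.18 ± 0.21 (SD, n = 4), an FC of 2.27 with an adjusted p of 0.000198. The other PLA2G4A probe, which lies downstream with 1 base between them, gave a mean of 1.20 ± 0.17 (SD, n = 4). The ratio was 0.70 when arrays were scaled to spiked-in RNA, a scaling that moved the median of all probes by −0.49, and PLA2G4A was still called higher.

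PTGS2, the inducible cyclooxygenase, had the largest ratio of the 10 genes. At its brightest probe the control signals were 238, 199, 258 and 190 in replicates 1 to 4. The HMB signals were 2477, 2273, 5026 and 1865. The groups were far apart, and replicate 3 had the highest signal in both channels. The log2 ratios were 3.38, 3.52, 4.29 and 3.29, with a mean of 3.62 ± 0.45 (SD, n = 4), an FC of 12.3 and an adjusted p of 2.42e-05.

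The probe of PTGS2 nearest the transcript end had a mean log2 ratio of 3.48 ± 0.49 (SD, n = 4), with 3.32, 3.39, 4.17 and 3.02 in replicates 1 to 4. The probe A_69_P004631 lies further upstream in the transcript. In the control channel its signals were 10.6, 14.5, 10.4 and 8.45, on 0 of 4 arrays well above background. In the HMB channel they were 127, 107, 223 and 75.7, well above background on all 4. For this probe only an approximate bound holds, about 5.90-fold higher with HMB or more. It entered the test through the HMB channel alone, and the adjusted p of 0.000124 (limma) belongs to its measured ratios, not to the bound. The bound takes, on each array, the dimmest control signal that was well above background in place of the probe's own. The brightness of the arrays was first put on a common scale. A signal that is not well above background can exceed this dimmest signal, so the bound is not strict.

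PTGS1, the constitutive cyclooxygenase, was not detected by either of its probes. Neither channel was well above background on any array, with control signals of 4.26 to 7.64 and HMB signals of 5.61 to 13.2, and most of them were surrogates that the scanner software set for spots at background. When dim probes were kept, the brighter PTGS1 probe had a log2 ratio of 0.23 ± 0.47 (SD, n = 4) with an adjusted p of 0.493 (limma). Its ratio was 0.93 in replicate 1 and 0 in replicates 2 to 4, where 1 or both signals were surrogates. This SD is therefore not a measured spread between replicates. At this brightness a difference in PTGS1 was not detectable, which does not show that none was there.

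**Figure D2:**
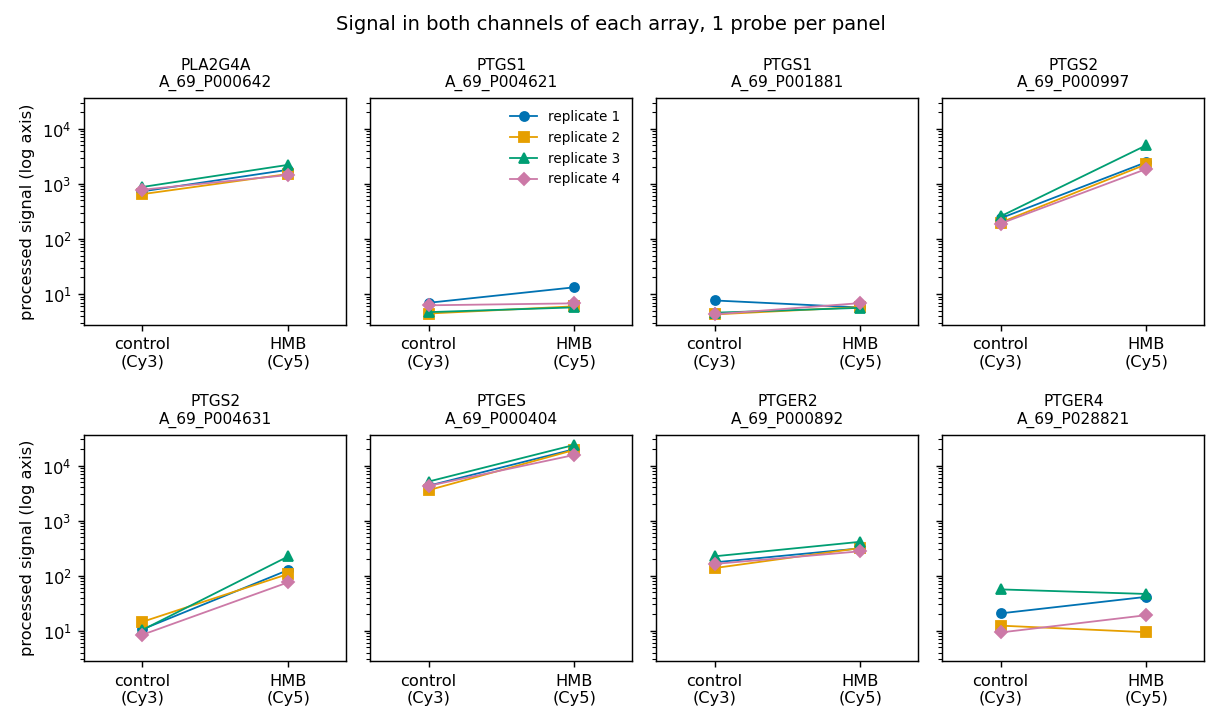
The processed signal (vertical axis, log scale, arbitrary units) is plotted in the control channel and in the HMB channel of each array, 1 probe per panel and 1 line per array. Lines rise on all 4 arrays for PLA2G4A, both PTGS2 probes, PTGES and PTGER2, whereas PTGS1 stays between 4.26 and 13.2 in both channels and the lines of this PTGER4 probe run in both directions; levels are not comparable between panels.

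PTGES, the microsomal E2 synthase that is inducible and works together with PTGS2, rose on every array. At its brightest probe the control signals were 4300, 3569, 5122 and 4278, and the HMB signals 19814, 19205, 23695 and 15575. The log2 ratios of replicates 1 to 4 were 2.20, 2.43, 2.21 and 1.86, with a mean of 2.18 ± 0.23 (SD, n = 4), an FC of 4.52 and an adjusted p of 2.28e-05 (limma). The groups did not overlap, and replicate 4 had the lowest ratio. All 5 PTGES probes overlap, and their FC ranged from 4.47 to 4.61. One of them, A_69_P000401, is printed in 5 spots per array, and the SD of its log2 ratio between these spots was 0.00887 to 0.0293.

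PTGES2 and PTGES3, which are present in most cells, did not pass the test, and their difference from PTGES was not tested. PTGES2 had log2 ratios of 0.06, 0.15, 0.08 and 0.08, all above 0, with a mean of 0.09 ± 0.04 (SD, n = 4) and an adjusted p of 0.247 (limma). PTGES3, better known as p23, a co-chaperone of HSP90, had 0.08, 0.13, −0.20 and −0.11 at its brightest probe, with a mean of −0.03 ± 0.15 (SD, n = 4) and an adjusted p of 0.796. The other PTGES3 probes had means of −0.12 and −0.17, with the lowest values, −0.47 and −0.51, both in replicate 3. None of the 3 PTGES3 probes was called, and the sign of the brightest depends on the processing. It was 0.09 with median centering in place of lowess.

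PTGIS, the prostacyclin synthase, varied between arrays. Its log2 ratios were 0.14, 0.49, 0.44 and −0.14, with control signals of 137, 91.4, 129 and 107 and HMB signals of 151, 129, 175 and 97.2. The channels overlapped, and the mean of 0.23 ± 0.30 (SD, n = 4) had an adjusted p of 0.147 (limma). Without replicate 4 the mean was 0.36 with an adjusted p of 0.0403, still under the FC of 1.3 needed for a call.

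Among the receptors, PTGER2 rose. Its brightest probe had control signals of 174, 137, 225 and 163 and HMB signals of 314, 317, 412 and 277 in replicates 1 to 4. Every HMB signal was above every control signal. The log2 ratios were 0.85, 1.21, 0.87 and 0.76, with a mean of 0.92 ± 0.20 (SD, n = 4), an FC of 1.90 and an adjusted p of 0.000470 (limma). Of the 6 PTGER2 probes, all were called, with means of 0.81 to 0.98. The probe A_69_P101276, which does not overlap the other 5, had 0.75, 1.04, 0.85 and 0.60. The overlapping probes differed within an array by an SD of 0.0508 to 0.125, more than those of PTGES. The size of the PTGER2 change depends on the background correction and scaling: the mean log2 ratio was 0.60 with normexp and loess and 0.43 with spike-in scaling, and it was called higher under both.

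PTGER4, the E2 receptor with the same second messenger, could not be tested. Its 5 overlapping probes were well above background on 0 or 1 array in the control channel and on 0 to 2 arrays in the HMB channel. Signals were 5.98 to 56.3 in the control and 9.41 to 46.5 with HMB. At the brightest of these probes the log2 ratios were 1.00, −0.39, −0.28 and 1.04 in replicates 1 to 4, so the arrays split in both directions. The overlapping probes differed in this. A_69_P028822 had 1.27, −0.09, −0.40 and 0.86, the last with a surrogate in 1 channel. A_69_P028824 had 1.17, −0.01, 0.38 and 0.41. All arrays were above 0 for A_69_P028823, with 0.55, 0.04, 0.07 and 0.32, and for A_69_P028825, with 0.64, 0.40, 0.71 and 0.59. In A_69_P028822 and A_69_P028825, 0 arrays were well above background in either channel, so their signs carry little weight. With dim probes kept, the brightest probe had a mean of 0.34 ± 0.78 (SD, n = 4) and an adjusted p of 0.545 (limma).

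PTGFR, the receptor for prostaglandin F2α, also split between arrays. The log2 ratios were −0.21, −0.23, 0.42 and 0.23, with control signals of 167, 132, 128 and 108 and HMB signals of 144, 113, 171 and 127. Replicates 1 and 2 were below 0 and replicates 3 and 4 above it, and the mean of 0.05 ± 0.33 (SD, n = 4) had an adjusted p of 0.747 (limma). The sign turned without replicate 3, at −0.07, and without replicate 4, at −0.01.

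**Figure D3:**
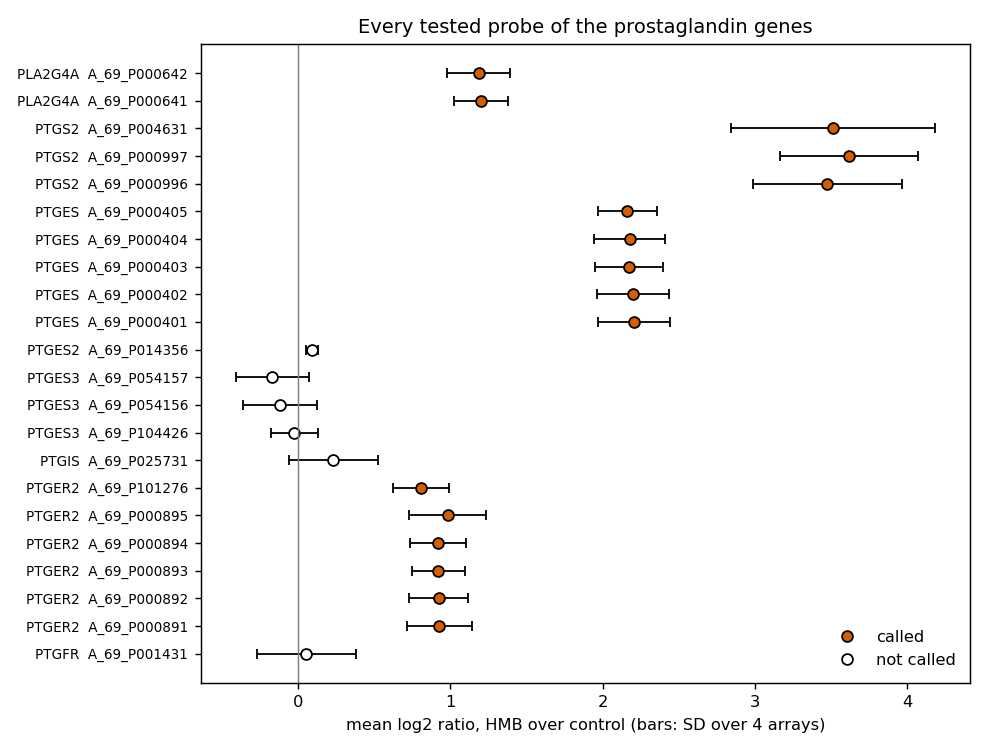
The mean log2 ratio of HMB over control (horizontal axis) is plotted with its SD over 4 arrays for each of the 22 tested probes, filled where called. Means were 3.48 and 3.62 for the PTGS2 probes measured in both channels, and 2.16 to 2.20 for PTGES. They were 1.18 to 1.20 for PLA2G4A and 0.81 to 0.98 for PTGER2. The third PTGS2 probe, A_69_P004631, had its control at background and gives only an approximate bound.

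The 4 genes that rose did not have their largest ratio on the same array. Of their 15 called probes with both channels well above background, the 11 of PTGES and PTGER2 had their highest ratio in replicate 2, and the 4 of PTGS2 and PLA2G4A in replicate 3. Replicate 4 had the lowest ratio in all 15. The median absolute log2 ratio over all tested probes was 0.240, 0.254, 0.283 and 0.242 in replicates 1 to 4, lowest in replicate 1. Over all called probes it was 0.628, 0.706, 0.657 and 0.621, lowest in replicate 4. When the arrays were scaled to the same median absolute ratio, replicate 4 was lowest in 13 of the 15. The 5 overlapping probes of PTGES, and likewise of PTGER2, weigh heavily in these counts.

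PTGS2 and PLA2G4A are neighbours in the genome. On EquCab1 their probes lie on opposite strands of chromosome 5, with 285 kb between the nearest probes and 0 probes of other genes in this interval. In the RefSeq gene order of the horse assembly TB-T2T, 0 annotated genes lie between them. PTGES and PTGES2 both lie on chromosome 25, at 6030423 and 7197561, and only PTGES was called, although the difference between the genes was not tested.

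Other genes of eicosanoid metabolism were counted from a list of 59 enzymes, receptors and transporters. The array has 39 of them, and 20 could be tested. With HMB, 1 was called higher and 9 lower, against 10.5% and 17.1% of all tested genes, and the median log2 ratio of the 20 was −0.25. Of the 9, 6 were well above background on all arrays in the control channel only. With both channels required, 1 of 14 tested genes was called higher and 3 lower. Under the same filter, 2546 of all 22653 tested probes were called higher and 3324 lower. The gene of the list called higher was ANXA1, encoding annexin A1, which is known to inhibit phospholipase A2. Its log2 ratios were 0.46, 0.56, 0.38 and 0.38, with a mean of 0.44 ± 0.09 (SD, n = 4) and an adjusted p of 0.00245 (limma). ANXA1 is named because it was the only one called higher. With treat or spike-in scaling 0 genes of the list were called higher, against 4 and 16 called lower. Of all 24670 tested probes, treat called 1542 higher and 1280 lower, and spike-in scaling 1247 higher and 17324 lower.

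FAM213B was the gene of this list with the largest change. It encodes an enzyme that reduces prostaglandin H2 to the F type. Its control signals were 404, 362, 444 and 329, and its HMB signals 146, 141, 168 and 153. The log2 ratios were −1.47, −1.36, −1.40 and −1.10, with a mean of −1.33 ± 0.16 (SD, n = 4) and an adjusted p of 6.84e-05 (limma). The groups did not overlap.

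For 3 of the 9 genes called lower (FAM213B, AKR1B1 and PLA2G7), both channels were well above background on all 4 arrays. With normexp and loess, 1 of the 20 tested genes was called higher and 3 lower, and loess without background correction gave the same counts. Of all 24670 tested probes, normexp and loess called 1945 higher and 1594 lower. Loess without background correction called 2669 of them higher and 1771 lower. AKR1B1, an aldo-keto reductase that can make prostaglandin F2α, had a mean log2 ratio of −0.70, and PLA2G7, which breaks down platelet-activating factor, −0.63. Both were chosen for naming after their values were seen. Of the 19 genes on the array that were too dim to be tested, PTGER3, PTGDR, HPGD (which inactivates prostaglandins) and SLCO2A1 (which takes them up) are members of the same pathway.

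**Figure D4:**
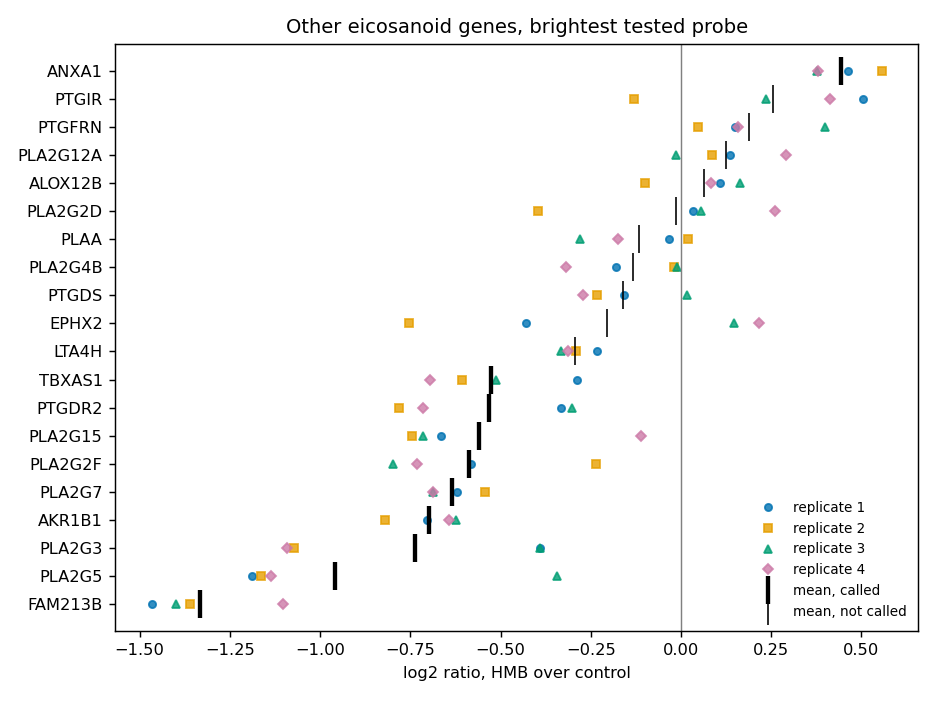
The log2 ratio of HMB over control (horizontal axis) is plotted on each of 4 arrays (symbols) for the 20 tested genes of the eicosanoid list, with a vertical tick at the mean, thick where called. FAM213B lies lowest with a mean of −1.33, and ANXA1 is the only called gene above 0, at 0.44.

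How the ratios were made changed the sizes more than the calls for PLA2G4A, PTGS2, PTGES and PTGER2. All 4 were called higher under each of the 18 alternatives. Most of these left out a replicate or changed the background correction, scaling, filter or test. The authors' table repeated the deposited ratios, and keeping marked spots left the ratios the same because these genes had no marked spots. Other filters changed the adjusted p but not the ratios. With spike-in scaling, 3 further genes were called, PTGES2 at −0.40, PTGES3 at −0.51 and PTGFR at −0.43, all lower, so 4 were called higher and 3 lower. Under that scaling 6.71% of all called probes were higher, against 42.5% with the deposited ratios. The scaling subtracted a constant per array, so the mean ratio of each of these genes moved by −0.49. Before it, PTGES2, PTGES3 and PTGFR were at 0.09, −0.03 and 0.05.

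**Figure D5:**
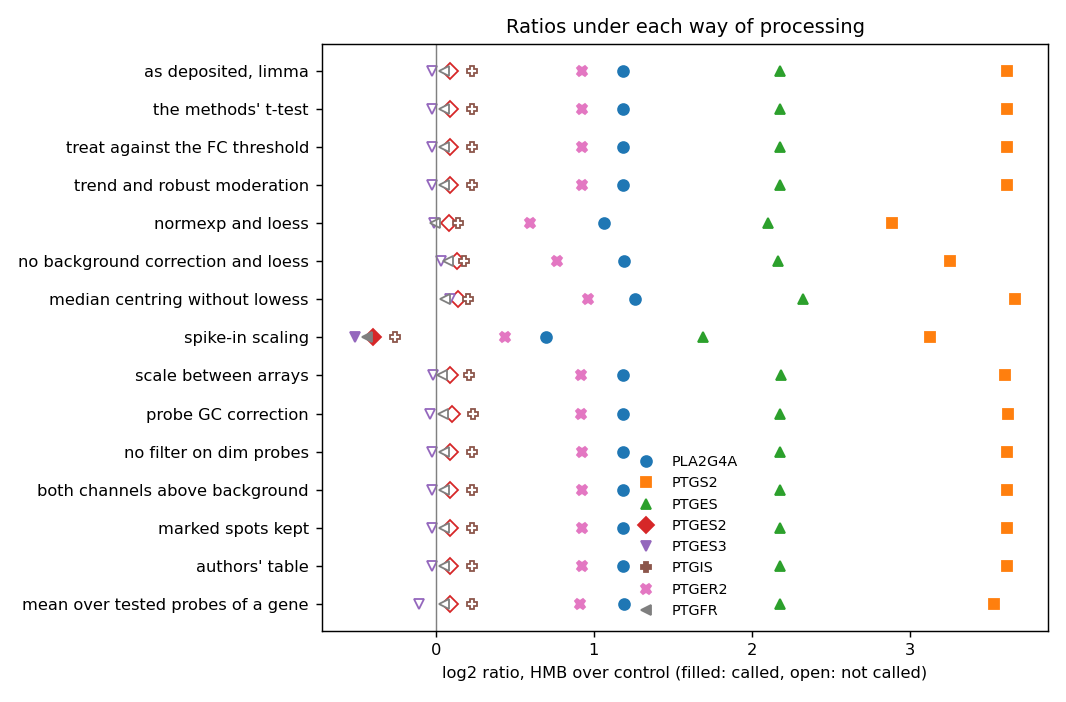
The log2 ratio of HMB over control (horizontal axis) is plotted for 8 genes under the deposited normalization and each alternative that keeps all arrays (rows), filled where called. PTGS2 ranges from 2.89 to 3.67, PTGES from 1.69 to 2.32, PLA2G4A from 0.70 to 1.26 and PTGER2 from 0.43 to 0.97, all filled, and the other genes are filled only with spike-in scaling, where the symbol of PTGIS at −0.26 is unfilled.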

How the data were processed

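Gene expression was measured on 4 Agilent horse arrays, each comparing HMB-treated cells (Cy5) with control cells (Cy3). The deposited intensity values are the spot signals after the background subtraction and the linear and lowess normalization of Feature Extraction, version 10.10.1.1 per the file headers. Feature Extraction also wrote the deposited log10 ratio of Cy5 over Cy3 for each spot, which the authors' table repeats. Multiplying the deposited log10 ratios by 3.3219 gave the log2 ratios used here.

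Control spots were omitted, as were 13 to 35 marked spots per array (non-uniform or outlying), and the spots of a probe were averaged. The 24670 tested probes were fitted with limma 3.58.1 in R 4.3.3 (intercept, empirical Bayes, Benjamini-Hochberg), with thresholds of 0.05 and an FC of 1.3. The fit was tested on simulated ratios with independent normal errors, which leave out a dye effect, a shared control RNA and links between probes. No comparison had more than 1 slide to use as a batch. The number of arrays limits the precision.

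Named were all 10 genes and, from the eicosanoid list, genes called with an absolute log2 ratio of at least 1, except where stated. The genes and lists were chosen with earlier results of these data known. Marker lists covered muscle, fibroblasts, leukocytes with macrophages, and endothelium. Symbols are those of the files, and all 10 were found in RefSeq. A planned search of promoters for motifs was not run. The alternatives were the methods' t-test, treat, a trend with robust moderation, normexp (offset of 50) or no background correction with loess, median centering, spike-in scaling, scaling between arrays, a GC correction, other probe filters, the authors' table, gene means, and each replicate left out.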

Additional observations from a re-analysis of the deposited data

Results flagged for a closer look

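The 22 tested prostaglandin probes and the 10 called eicosanoid genes each gave a set of 4 ratios. Each set was examined for an array that stood apart from the other 3. Of 32 sets, 2 had such an array, and 0 of these belonged to the 10 prostaglandin genes. Chance gives such an array in about 1 of 20 independent sets. These sets were not independent, since probes of PTGES and of PTGER2 overlap, and the eicosanoid genes entered by their call. The count is therefore not set against chance. PLA2G5, a secreted phospholipase, had a log2 ratio of −0.34 in replicate 3, against −1.19, −1.16 and −1.14 in the other replicates, and its HMB channel was well above background on 1 array. PLA2G15, a lysosomal phospholipase, had −0.11 in replicate 4, against −0.67, −0.75 and −0.72, and its HMB channel was well above background on 0 arrays. For PLA2G15 only an approximate bound on the mean over the arrays holds, 1.33-fold lower with HMB. On 3 arrays the dimmest HMB signal well above background replaced its own, and otherwise its own, higher signal was kept. Replicate 4, at −0.11, does not reach the bound by itself. PLA2G15 entered the test through the control channel alone, and the adjusted p of 0.0102 (limma) belongs to its measured ratios, not to the bound. Both genes were named after their values were seen.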

How the results depend on the processing

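PLA2G4A, PTGS2, PTGES and PTGER2 kept their direction and their call under all 18 alternatives, some of which could not change their ratios. With 1 replicate left out, their log2 ratios ranged from 1.13 to 1.28, 3.40 to 3.73, 2.09 to 2.28 and 0.83 to 0.98, respectively. The number of called prostaglandin genes moved from 4 only with spike-in scaling, to 7.

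Genes without a call changed sign under some alternatives. PTGES2 was at −0.40 and PTGIS at −0.26 with spike-in scaling. PTGES3 was at 0.032 without background correction, 0.092 with median centering and 0.032 without replicate 3, and ranged from −0.078 to 0.032 with 1 replicate left out. PTGFR was at −0.0025 with normexp, −0.43 with spike-in scaling, −0.069 without replicate 3 and −0.0058 without replicate 4, and ranged from −0.069 to 0.15 with 1 replicate left out.

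Of all probes, 7046 were called (42.5% of them higher). This became 2822 with treat (54.6% higher), 3539 with normexp (54.96%), 4440 without background correction (60.1%) and 18571 with spike-in scaling (6.71%). With median centering 51.4% were higher. The methods' t-test called 5030 (41.7% higher), and with both channels above background 5870 of 22653 tested probes were called (43.4% higher). With 1 replicate left out, 6637 to 7151 were called. The 10 called genes of the eicosanoid list became 5 with the methods' t-test, 4 with treat, 4 with normexp, 4 without background correction, 16 with spike-in scaling and 4 with both channels above background. With 1 replicate left out they numbered 10 to 11. The cause of these changes was not tested, except that fewer genes were tested with both channels required. Each ratio is already a difference within 1 array, so no further replicate block was fitted. Signal over background limits PTGS1 and PTGER4.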
